A study of Homo sapiens with 6 samples.

Results

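Transcripts of 10 DENND genes were examined in MOLT-4, a long-established human cell line of T-ALL (acute lymphoblastic leukemia of the T lineage). The genes are DENND1A, DENND1B, DENND1C, DENND2D, DENND3, DENND4A, DENND4B, DENND4C, DENND5A and DENND6A. They were taken by gene name and are 10 of the 60640 gene identifiers measured. The family was chosen by the measured FPKM difference of DENND2D and other members between wild type and IK-KO libraries, so the differences of these 10 genes between the groups are described below without a test. PolyA RNA was sequenced from 3 wild type libraries, taken here as the control of the CRISPR knockout, and from 3 IK-KO libraries. The latter were made after CRISPR-Cas targeting of IKZF1, which encodes IKAROS. No drug or time point is named for either group, and both carry the mutations of the MOLT-4 line. Both the edited cells and their control were purchased, and the labels name no clone or separate culture. The study shows different knockout clones by Western blot, and which of them gave these libraries is not stated. Other differences between the edited line and its control therefore cannot be told apart from effects of the loss of IKAROS, and the p-values below reflect variation among these libraries alone, which may be technical.

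DENN-domain proteins are exchange factors for Rab GTPases, the small switches that give each membrane compartment its identity. An exchange factor removes GDP from its Rab so that GTP can bind, which turns the Rab on and lets it recruit effectors. GTPase-activating proteins, most of them with a TBC domain, turn it off again. The DENND1 proteins act on RAB35 in recycling from endosomes, and DENND1B is known in T helper cells for its part in removing the T-cell receptor from the surface. DENND2 proteins have been assigned to RAB9, which returns mannose-6-phosphate receptors from endosomes to the Golgi, DENND3 to RAB12, DENND4 proteins to RAB10, DENND5 proteins to RAB39 and DENND6 proteins to RAB14.

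Values are FPKM (fragments per kilobase of transcript per 1000000 mapped fragments), a unit that corrects for transcript length, so levels of different genes can be set side by side. Deposited confidence bounds gave a depth of between 15.0 and 18.2 fragments per FPKM and kilobase in the 6 libraries, with overlapping ranges in the groups. IKZF1 itself was at 134, 124 and 105 FPKM in wild type libraries, against 207, 260 and 207 FPKM in the other group (log2 change 0.89, SE 0.12, limma adjusted p 0.00295). Its RNA was thus higher where the gene was targeted and does not check the knockout, so the group is called IK-KO-labelled. The study tested the edited cells for loss of IKAROS by PCR and by Western blot, measures that are not in the files used here. All 7 defining T-cell markers examined (CD3D, CD3E, CD3G, CD5, CD7, LCK and ZAP70) were at 1 FPKM or more in every library, and their levels summed to between 1312 and 1383 FPKM in wild type and between 1452 and 1623 FPKM in the IK-KO-labelled group. Of these 7, 3 were called higher (CD3D, CD3G and ZAP70) and 2 lower (CD5 and CD7), and their part in the results below was not tested. The 7 do not stand for every T-cell gene. CD2, a T-cell surface molecule outside them, was at 61.5 ± 2.45 FPKM in wild type and 5.14 ± 0.217 FPKM in the IK-KO-labelled group (SD, n = 3). Of 10 markers of B, myeloid, erythroid, stromal and epithelial cells, only CD79A reached 1 FPKM, in 1 library (wild type replicate 2), and HBB and EPCAM were at 0 in all 6. In bulk RNA, fewer cells with a transcript and less of it per cell cannot be told apart.

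DENND2D was the most abundant of the 10 transcripts in wild type cells and one of the scarcer ones in the IK-KO-labelled group. It was at 90.7, 94.8 and 94.1 FPKM in wild type replicates 1 to 3 and at 4.34, 4.51 and 3.68 FPKM in IK-KO replicates 1 to 3. The 2 groups were far apart, and replicates within each were close. The means were 93.2 ± 2.16 and 4.17 ± 0.439 FPKM (SD, n = 3), so that 4.48% of the wild type level was left, a 22.3-fold difference. On the scale of log2(FPKM + 1) the difference was −4.19 (SE 0.08), which ranked 2 of 12652 tested genes by size. The rank belongs to this scale, on which the added 1 shrinks differences of genes that are near 0 in a group. In FPKM some genes differed by more, such as GIMAP6 (182-fold) and DOCK8 (0 in every IK-KO-labelled library). The confidence bounds of DENND2D ran from 86.2 to 99.4 FPKM over the wild type libraries and from 2.78 to 5.52 FPKM over those of the IK-KO-labelled group. These bounds are not turned into fragment counts, since DENND2D has 8 annotated transcripts and the depth above came from genes with 1 transcript. The lower level was above 0 in each library.

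**Figure D1:**
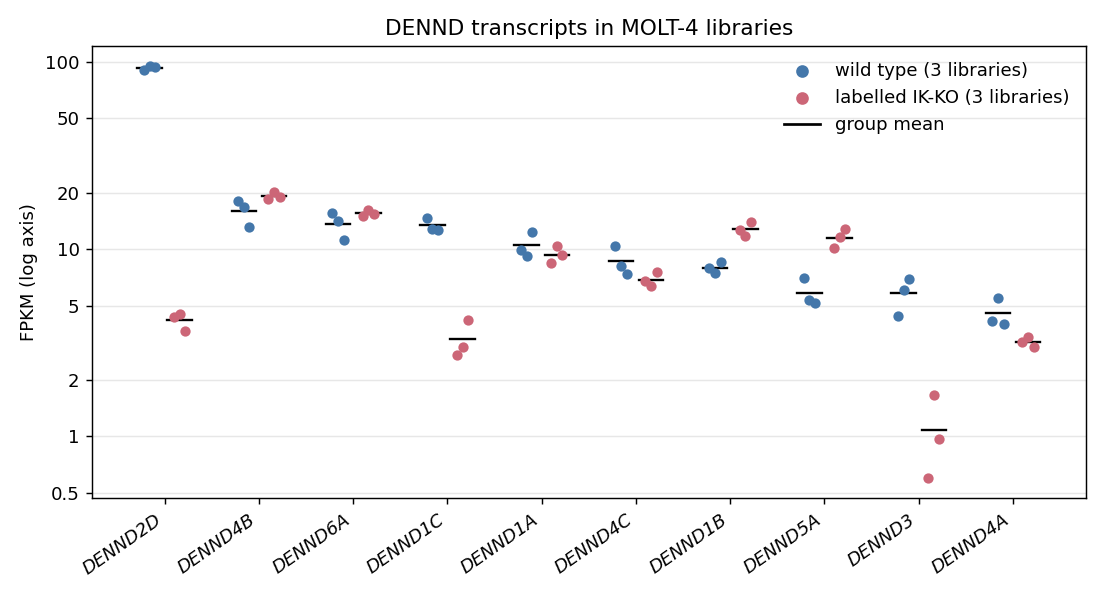
FPKM of each of the 10 DENND genes in each library on a log axis, with 3 wild type points (blue) and 3 IK-KO points (red) per gene, and the group mean as a black line. Wild type DENND2D lay between 90.7 and 94.8 FPKM, and the IK-KO points lay between 3.68 and 4.51 FPKM. DENND1C, DENND3 and, by less, DENND4A were also lower in every IK-KO-labelled library, whereas DENND1B, DENND5A and, by less, DENND4B were higher.

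The RAB35 exchange factors of the DENND1 group differed in opposite directions. DENND1C was at 14.7, 12.8 and 12.7 FPKM in wild type libraries, against 2.72, 3.01 and 4.21 FPKM in the IK-KO-labelled group. Every wild type library lay above every IK-KO-labelled library, and the means of 13.4 ± 1.10 and 3.32 ± 0.787 FPKM (SD, n = 3) differed 4.04-fold (log2 difference −1.75, SE 0.14). DENND1B went the other way, at 7.99, 7.43 and 8.52 FPKM in wild type libraries, against 12.7, 11.8 and 14.0 FPKM in the IK-KO-labelled group. Here too the groups did not overlap, and the mean was 1.61-fold higher in the IK-KO-labelled group (12.8 ± 1.12 against 7.98 ± 0.547 FPKM, SD, n = 3, log2 difference 0.62, SE 0.09). DENND1A, a factor of clathrin-coated vesicles, was at 9.90, 9.20 and 12.3 FPKM in wild type libraries, against 8.41, 10.4 and 9.26 FPKM in the IK-KO-labelled group, and its groups overlapped (log2 difference −0.14, SE 0.13). Summed over the 3 genes, the DENND1 transcripts came to 31.9 ± 2.13 FPKM in wild type and 25.5 ± 1.85 FPKM in the IK-KO-labelled group (SD, n = 3). DENND1C was the most abundant of the 3 in wild type and the least abundant in the IK-KO-labelled group, where DENND1B came first.

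The promoters of the members were read for the core motif of IKAROS, GGGAA, on either strand (TTCCC on the strand shown). RefSeq start sites (GRCh38.p14) were found for 9 of the 10 genes, with 12 entries in all, and the 250 bases before each start were searched. The motif stood in 11 of the 12, against 59.0% of 35116 promoters of the same length, and the longer TGGGAA, which contains it, in 3 of the 12, against 20.8%. The 12 entries are not independent, since both windows of DENND5A overlap and hold the same matches, as do both windows of DENND4C. The entry without a match was DENND2D. It has its start at 111200646, while the gene as measured runs upstream to 111204535, and any start further upstream was not read. The entry of DENND1C held 3 matches, beginning at −212, −179 and −130 counted from its start, and that of DENND1B held 1, beginning at −27. The DENND2D window held 4 CG dinucleotides, and 34.3% of all promoters have 4 or fewer. DENND1C had 9 and DENND1B 21, beside a median of 11 over all promoters. A match is a string of letters and not a measured binding site, and these windows leave out enhancers. Sequences are shown for DENND2D and DENND1C, with the largest and next largest log2 difference, and for DENND1B, which was higher. DENND3 differed more than DENND1C in fold (5.41 against 4.04) but had no entry. DENND5A was higher by more than DENND1B (log2 difference 0.87 against 0.62) and is not shown. The 3 sequences are given 5′ to 3′ on the minus strand with matches to GGGAA or TTCCC in capitals: DENND2D at chr1:111200647-111200896, DENND1C at chr19:6481788-6482037 and DENND1B at chr1:197775481-197775730.
DENND2D: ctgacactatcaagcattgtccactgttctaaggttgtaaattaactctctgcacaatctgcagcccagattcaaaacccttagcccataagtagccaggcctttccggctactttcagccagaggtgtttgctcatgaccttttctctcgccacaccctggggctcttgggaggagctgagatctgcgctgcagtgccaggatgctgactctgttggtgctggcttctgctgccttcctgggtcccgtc
DENND1C: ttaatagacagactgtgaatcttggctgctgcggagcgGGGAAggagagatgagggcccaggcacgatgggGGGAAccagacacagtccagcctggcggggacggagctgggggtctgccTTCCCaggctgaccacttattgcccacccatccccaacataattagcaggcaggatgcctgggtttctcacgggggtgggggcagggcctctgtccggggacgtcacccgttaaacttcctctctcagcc
DENND1B: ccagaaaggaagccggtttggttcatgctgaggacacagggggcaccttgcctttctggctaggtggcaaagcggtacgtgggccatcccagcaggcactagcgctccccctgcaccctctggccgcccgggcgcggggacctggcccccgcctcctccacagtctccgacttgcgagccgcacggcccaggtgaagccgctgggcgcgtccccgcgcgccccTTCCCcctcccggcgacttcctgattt

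DENND3, which links the starvation kinase ULK1 to RAB12, was low throughout and lower in the IK-KO-labelled group. It was at 4.41, 6.09 and 6.95 FPKM in wild type libraries, against 0.601, 1.66 and 0.964 FPKM in the IK-KO-labelled group. The groups did not overlap, but the lower confidence bound was 0 in IK-KO replicate 1, and the bounds of the other 2 libraries of that group stood for only 4.98 and 10.8 fragments. The means of 5.82 ± 1.29 and 1.08 ± 0.540 FPKM (SD, n = 3) gave a ratio of 5.41, which is loosely fixed with bounds this wide, and a log2 difference of −1.73 (SE 0.23). With a pseudocount of 0.1 in place of 1 the difference was −2.41, since the larger pseudocount shrinks changes of low transcripts.

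DENND5A, known as a partner of RAB6 and assigned to RAB39, was higher in the IK-KO-labelled group. It was at 7.04, 5.38 and 5.16 FPKM in wild type libraries, against 10.1, 11.6 and 12.8 FPKM in the IK-KO-labelled group. The libraries of the groups did not overlap, although the confidence bounds did (up to 8.88 FPKM in wild type and from 8.58 FPKM in the IK-KO-labelled group). The mean was 1.97-fold higher (11.5 ± 1.34 against 5.86 ± 1.03 FPKM, SD, n = 3, log2 difference 0.87, SE 0.13).

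The DENND4 group, exchange factors of RAB10, and DENND6A, of RAB14, differed less. DENND4B lay between 13.2 and 18.1 FPKM in wild type and between 18.7 and 20.2 FPKM in the IK-KO-labelled group (log2 difference 0.26, SE 0.12). DENND4A, at 3.96 to 5.52 FPKM in wild type and 3.02 to 3.38 FPKM in the IK-KO-labelled group, was slightly lower (log2 difference −0.39, SE 0.14). For both genes the libraries did not overlap but the confidence bounds did. DENND4C lay between 7.41 and 10.5 FPKM and between 6.35 and 7.55 FPKM, with overlap (log2 difference −0.29, SE 0.13). The sum of the 3 DENND4 transcripts was 29.3 ± 4.22 FPKM in wild type and 29.4 ± 0.719 FPKM in the IK-KO-labelled group (SD, n = 3). DENND6A was at 11.3 to 15.6 FPKM in wild type libraries, against 15.1 to 16.1 FPKM in the IK-KO-labelled group, again with overlap (log2 difference 0.18, SE 0.12).

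In the fit across all genes with a mean of at least 1 FPKM, all 10 genes passed the filter, and 5 of them were called at an adjusted p under 0.05, against 19.9% of all 12652 tested genes. Lower in the IK-KO-labelled group were 3 (DENND2D, DENND1C and DENND3), against 9.75% of tested genes, and higher were 2 (DENND5A and DENND1B), against 10.1%. Called and at least 2-fold apart were the same 3 lower genes, against 2.10% of tested genes in that direction and 3.19% in either. The groups did not overlap for 7 of the 10, against 39.0% of tested genes. The genes were picked with this contrast in view, so nothing is read from these counts. The median log2 difference of the 10 was −0.21, with a median size of 0.51, beside 0.02 and 0.18 over all tested genes.

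The order of the levels changed between the groups. In wild type, DENND2D came first and no other gene reached its range, followed by DENND4B, DENND6A, DENND1C, DENND1A, DENND4C, DENND1B, DENND5A, DENND3 and DENND4A. Of the 9 pairs of neighbours in that order, 6 had overlapping libraries, and the steps free of overlap were DENND2D to DENND4B, DENND1C to DENND1A and DENND1B to DENND5A. In the IK-KO-labelled group the order was DENND4B, DENND6A, DENND1B, DENND5A, DENND1A, DENND4C, DENND2D, DENND1C, DENND4A and DENND3, and 4 of the 9 neighbouring pairs overlapped (DENND1B and DENND5A, DENND5A and DENND1A, DENND2D and DENND1C, DENND1C and DENND4A). The summed FPKM of the 10 genes was 183, 180 and 176 in wild type and 82.6, 89.1 and 90.0 in the IK-KO-labelled group. DENND2D made up 51.9% ± 2.07 of that sum in wild type and 4.80% ± 0.627 in the IK-KO-labelled group (SD, n = 3). Without DENND2D the sums were 86.5 ± 5.44 and 83.0 ± 4.27 FPKM (SD, n = 3), and their ranges overlapped.

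**Figure D2:**
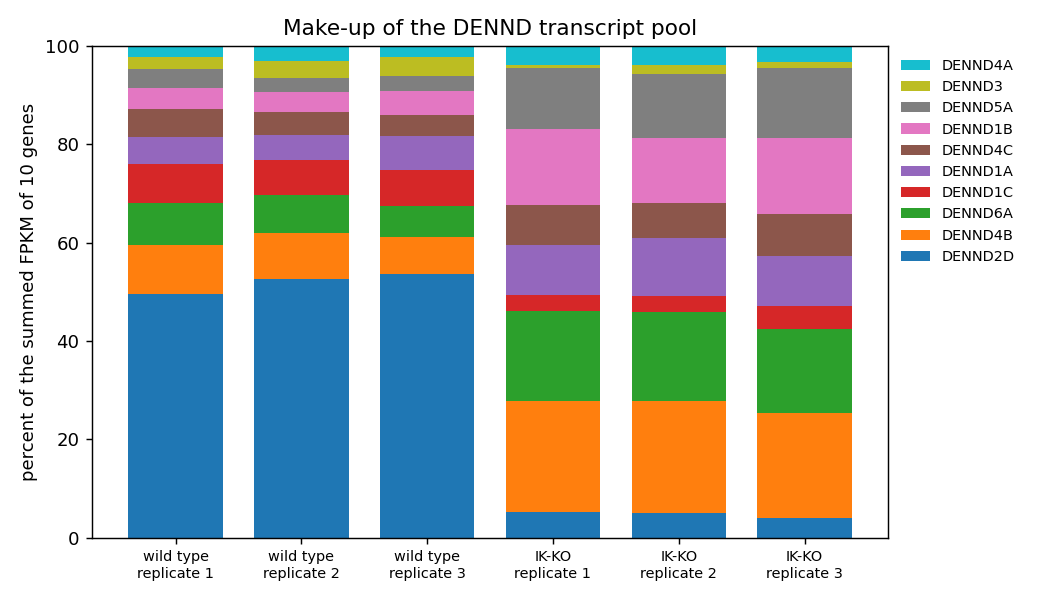
Share of each DENND gene in the summed FPKM of the 10 genes, in percent, as 1 stacked bar per library. DENND2D (bottom, blue) fills 51.9% on average in the 3 wild type bars and 4.80% in the 3 IK-KO bars, where DENND4B has the largest share, 22.1% on average.

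The genes lie on 7 chromosomes, and genes along chromosome 9, among others, differed together between the groups, so each gene was set beside its neighbours (GRCh38, positions counted from 1). DENND2D (ENSG00000162777.17) lies on chromosome 1 (minus strand) at 111185969 to 111204535, DENND1B (ENSG00000213047.13) at 197504748 to 197775696 and DENND4B (ENSG00000198837.10) at 153929501 to 153946718 of the same chromosome. DENND1C (ENSG00000205744.10) is on chromosome 19 at 6467207 to 6482557, DENND5A (ENSG00000184014.8) on chromosome 11 at 9138825 to 9265350, and DENND3 (ENSG00000105339.10) on chromosome 8 at 141117278 to 141195808. DENND1A (ENSG00000119522.16) is on chromosome 9 at 123379654 to 123930152, DENND4C (ENSG00000137145.20) on the same chromosome at 19230435 to 19373545, DENND4A (ENSG00000174485.15) on chromosome 15 at 65658046 to 65792293 and DENND6A (ENSG00000174839.13) on chromosome 3 at 57625454 to 57693077. The median log2 difference of the tested genes within 5 Mb was −0.02 around DENND2D, −0.01 around both DENND1C and DENND3, 0.08 around DENND1B and −0.10 around DENND5A. The differences of these 5 genes were thus as large, or nearly so, with the median of their neighbours taken off (−4.17, −1.74, −1.72, 0.54 and 0.97). DENND1A and DENND4C both lie on chromosome 9, where the neighbours had medians of −0.37 and −0.35. With these removed, the difference of DENND1A turned from −0.14 to 0.23 and that of DENND4C from −0.29 to 0.06. Around DENND4B the median was 0.21, and 0.05 of its difference was left without it. Around DENND4A and DENND6A it was 0.07 and 0.08, which left −0.47 and 0.11.

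**Figure D3:**
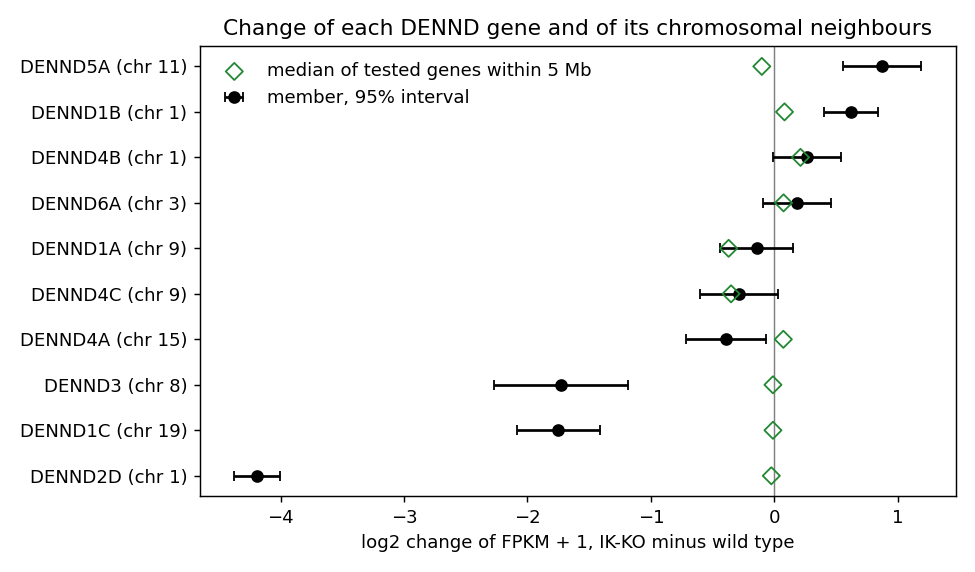
Log2 difference of FPKM + 1 (IK-KO minus wild type) of each DENND gene, with its 95% interval from the fit over 6 libraries (black), and the median difference of the tested genes within 5 Mb (green diamonds). DENND2D, at −4.19, DENND1C, at −1.75, and DENND3, at −1.73, sit far from their neighbours, whereas DENND4B, DENND6A and DENND4C have their neighbours' median inside their own interval, as has DENND1A.

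DENND2D shares its locus with CHI3L2, a secreted chitinase-like protein, which runs on the opposite strand. The 2 rows overlap by 3765 bases, at the 5′ ends of both, but no exon base of one is an exon base of the other in GENCODE release 44. The main start site of CHI3L2 lies 27067 bases from that of DENND2D, and the CHI3L2 row begins 125 bases from it. CHI3L2 was at 147, 160 and 156 FPKM in wild type libraries, against 56.0, 55.0 and 53.2 FPKM in the IK-KO-labelled group, without overlap. It fell by 1.48 on the log2 scale (SE 0.05, limma adjusted p 1.08e-05). Whether reads were assigned by strand is not stated, so reads from introns of this overlap cannot be given to either gene with certainty. DENND4A overlaps SLC24A1 and RAB11A, both on the opposite strand. It shares 363 exon bases with SLC24A1, or 3.42% of its own, and 0 with RAB11A.

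Within 500 kb of DENND2D the tables list 40 other genes, of which 10 passed the filter. Of these 10, 3 were called, against 19.9% of all tested genes in either direction. All 3 were lower (against 9.75% of all tested genes), namely CHI3L2, CD53 and UBE2FP3. CD53, a tetraspanin of leukocytes, fell from 63.4 ± 1.58 to 36.8 ± 4.48 FPKM (SD, n = 3, log2 −0.77, SE 0.09, limma adjusted p 0.00133). UBE2FP3, a pseudogene, fell from 1.97 ± 0.213 to 0.757 ± 0.0940 FPKM (SD, n = 3, log2 −0.76, limma adjusted p 0.0136; 0.0102 to 0.0531 over its alternatives, lost with the replicate block and without wild type replicate 1). The nearest expressed gene on the other side, CEPT1, an enzyme of phospholipid synthesis that ends 0.865 kb from DENND2D, was at 33.4 ± 4.19 and 37.4 ± 1.72 FPKM (SD, n = 3) and was not called (log2 difference 0.16, 95% interval −0.06 to 0.38). DRAM2, WDR77, ATP5PB, RAP1A and INKA2 were not called either, with log2 differences between −0.10 and 0.06. The noncoding AL355816.2 was at 9.35 FPKM in wild type replicate 3, far above the other 5 libraries, and was not called.

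**Figure D4:**
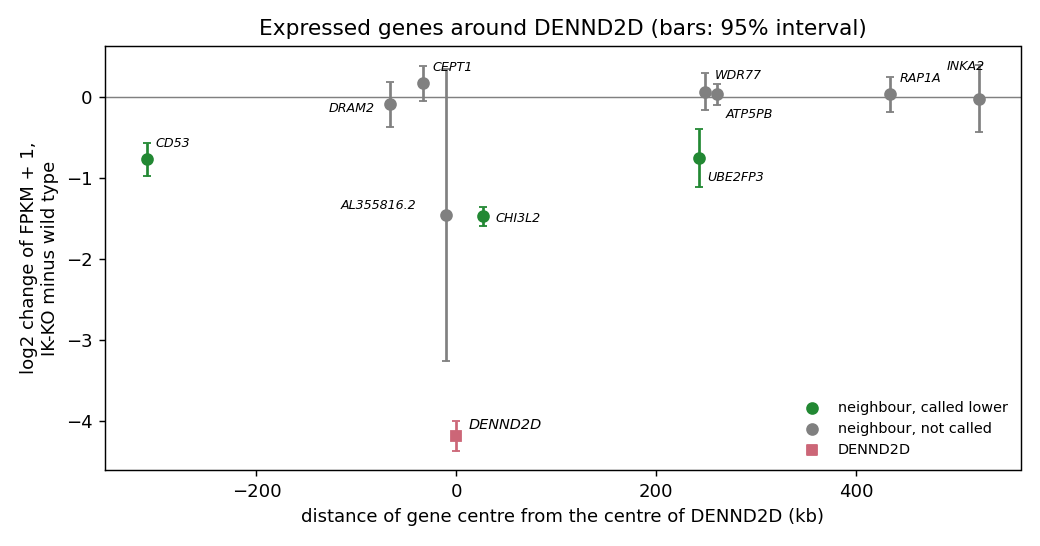
Log2 difference of FPKM + 1 (IK-KO minus wild type, with 95% intervals) of the 10 expressed genes within 500 kb of DENND2D against the distance of their centres from its centre in kb. CHI3L2 (−1.48), CD53 (−0.77) and UBE2FP3 (−0.76), in green, were called lower; the 7 genes in grey were not called, and DENND2D (red square) lies at −4.19.

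Across the 6 libraries, the genes whose pattern was most like that of DENND2D were GIMAP6, DOCK8, PRKCH, CD2 and GIMAP7. The measure was the Euclidean distance between log2(FPKM + 1) profiles centred on the wild type mean, over 6 libraries, and it was 0.42, 0.51, 1.04, 1.46 and 1.53 in that order. GIMAP6, a lymphocyte GTPase, lay at 15.4 to 17.3 FPKM in wild type libraries, against 0.0130 to 0.175 FPKM in the IK-KO-labelled group. DOCK8, an exchange factor of CDC42 in lymphocytes, was at 12.9 to 15.3 FPKM in wild type and listed at 0 in all 3 libraries of the IK-KO-labelled group. With 2 groups, this likeness restates a difference of like size on the scale of log2(FPKM + 1). In FPKM the differences were unlike, at 182-fold for GIMAP6 and 12.0-fold for CD2, against 22.3-fold for DENND2D.

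The DENN family outside these 10 genes was compared next, with a list of 18. DENND2A and DENND6B were listed at 0 in all 6 libraries and DENND2C stayed below 0.121 FPKM, so DENND2D was the main DENND2 transcript in wild type cells. Of the 15 genes that passed the filter, 4 were called, 2 higher and 2 lower, against 19.9% of all tested genes, and the median log2 change was −0.02. DENND2B (also known as ST5), an exchange factor of RAB13, rose from 2.39, 2.92 and 3.41 FPKM to 5.30, 6.74 and 7.35 FPKM without overlap (log2 change 0.93, SE 0.15; limma adjusted p 0.0065). It thereby exceeded DENND2D in every IK-KO-labelled library. DENND11 rose from 10.1 ± 0.872 to 14.2 ± 0.396 FPKM (SD, n = 3, log2 change 0.46, SE 0.08, limma adjusted p 0.009). C9orf72, which forms a complex with SMCR8 in autophagy, fell from 3.80 ± 0.365 to 1.57 ± 0.189 FPKM (SD, n = 3, log2 change −0.90, SE 0.13, limma adjusted p 0.00387). It lies on chromosome 9, and with its neighbours' median removed the change was −0.68 and still called.

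NPRL3, a subunit of the GATOR1 complex that restrains mTORC1, fell from 19.2 ± 1.09 to 12.4 ± 0.873 FPKM (SD, n = 3, log2 change −0.59, SE 0.08, limma adjusted p 0.00306). Its partner NPRL2 was not called (log2 difference −0.09, 95% interval −0.32 to 0.15). DENND5B, the paralog of DENND5A, varied widely in wild type, at 7.03, 10.1 and 3.27 FPKM, and was not called (log2 difference −0.22, 95% interval −0.98 to 0.54). DENND10, MADD, SBF1, SBF2, AVL9, FLCN, FNIP1, FNIP2 and SMCR8 had log2 differences between −0.14 and 0.19 and were not called.

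Of the Rabs on which the members act, 1 was called. RAB35, the target of the DENND1 group, was at 27.0 ± 1.81 and 24.6 ± 0.797 FPKM (SD, n = 3) and was not called (log2 difference −0.13, 95% interval −0.29 to 0.03). RAB9A, assigned to DENND2D, lay between 6.38 and 8.10 FPKM in wild type and between 6.41 and 9.88 FPKM in the IK-KO-labelled group (log2 difference 0.22, 95% interval −0.17 to 0.62), while DENND2D itself differed 22.3-fold. RAB10 was the most abundant of these Rabs, at 64.1 ± 6.56 and 73.2 ± 10.0 FPKM (SD, n = 3), and RAB12 among the scarcer, at 5.14 ± 0.530 and 5.31 ± 1.31 FPKM, and neither was called. RAB39A was listed at 0 in all 6 libraries, whereas its paralog RAB39B was at 3.59 ± 0.696 and 3.11 ± 0.297 FPKM (SD, n = 3) and was not called. RAB14, the target of DENND6A, fell from 21.5 ± 1.03 to 14.8 ± 0.547 FPKM (SD, n = 3, log2 change −0.51, SE 0.07, limma adjusted p 0.00289). It lies on chromosome 9, and with its neighbours' median removed it was no longer called (log2 difference −0.13, limma adjusted p 0.241; 0.00122 to 0.241 over its alternatives). Over the whole list of 19 Rabs assigned to DENN proteins, 14 passed the filter and 1 was called, RAB14 (7.14% of those tested, against 19.9% of all tested genes).

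Rab exchange factors without a DENN domain held 3 called genes among 15 tested, all lower, beside 19.9% of all tested genes called in either direction and 9.75% called lower. Nothing particular to the list is read from this count. RAB3IP, the RAB8 exchange factor Rabin8, fell from 15.4 ± 0.332 to 9.17 ± 1.01 FPKM (SD, n = 3, log2 change −0.69, SE 0.09, limma adjusted p 0.00278). ANKRD27, an exchange factor of RAB21, fell from 14.3, 12.3 and 11.9 FPKM to 6.27, 7.43 and 8.27 FPKM (log2 change −0.73, SE 0.12, limma adjusted p 0.00592). RGP1, which acts on RAB6 and lies on chromosome 9, was at 2.79 ± 0.126 and 1.49 ± 0.225 FPKM (SD, n = 3; limma adjusted p 0.0201) and lost its call in 7 of 13 alternatives, among them 4 that left out 1 library each (wild type replicates 1 and 2, IK-KO replicates 1 and 2), with adjusted p from 0.0152 to 0.167 over all 13. The median log2 change of the list was −0.01.

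Among Rab GTPase-activating proteins, which oppose the exchange factors, 7 of 33 tested genes were called (21.2%, against 19.9% of all tested genes), 2 higher and 5 lower, with a median log2 change of −0.05. TBC1D10C, a lymphocyte protein that acts on RAB35, fell from 37.8 ± 0.980 to 21.2 ± 2.21 FPKM (SD, n = 3, log2 change −0.81, SE 0.08, limma adjusted p 0.000793). TBC1D13, also directed at RAB35, fell from 10.6 ± 1.02 to 6.73 ± 0.760 FPKM (SD, n = 3; limma adjusted p 0.0111), but lies on chromosome 9 and was not called with its neighbours' median removed (log2 difference −0.23, limma adjusted p 0.208; 0.00675 to 0.208 over its alternatives). TBC1D16 rose from 2.70 ± 0.436 to 5.78 ± 0.957 FPKM (SD, n = 3, log2 change 0.87, SE 0.15, limma adjusted p 0.00776). TBC1D7, which also belongs to the TSC complex, rose from 28.3 ± 1.14 to 41.1 ± 1.37 FPKM (SD, n = 3, log2 change 0.53, SE 0.06, limma adjusted p 0.0013), and 0.23 of the change was left with its neighbours' median on chromosome 6 removed.

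Genes for Rab prenylation and membrane cycling yielded 1 called gene of 14 (7.14%, against 19.9% of all tested genes), YIPF3 (log2 change 0.25, limma adjusted p 0.0316; 0.0215 to 0.924 over its alternatives). Its call was lost without wild type replicate 1 or 3 or IK-KO replicate 1 or 2, and with the median of its neighbours on chromosome 6 removed its difference was −0.01. In the list of effectors and partners, 7 of 34 tested genes were called (20.6%, against 19.9% of all tested genes), 3 higher and 4 lower, with a median log2 change of 0.02. FSCN1, the actin-bundling protein fascin that RAB35 recruits, changed most in it, from 1.06, 1.42 and 2.17 FPKM to 5.86, 5.89 and 6.24 FPKM (log2 change 1.48, SE 0.17, limma adjusted p 0.00158). IGF2R, the cation-independent mannose-6-phosphate receptor, which RAB9 returns to the Golgi, rose from 10.6 ± 1.63 to 17.8 ± 1.46 FPKM (SD, n = 3, log2 change 0.71, SE 0.12, limma adjusted p 0.00636), with 0.46 left when its chromosome 6 neighbours were removed. M6PR, the cation-dependent receptor, was at 44.6 ± 1.65 and 46.1 ± 2.39 FPKM (SD, n = 3) and was not called (log2 difference 0.05, 95% interval −0.10 to 0.19). CLTA, a clathrin light chain, fell from a mean of 140 FPKM to one of 93.8 FPKM without overlap (n = 3, log2 change −0.57, limma adjusted p 0.000432), and −0.25 of this change was left with the median of its chromosome 9 neighbours removed. RABEPK, an effector of RAB9, also lies on chromosome 9 and fell by 0.45 on the log2 scale (limma adjusted p 0.00947), but was not called with its neighbours removed (limma adjusted p 0.522; 0.00594 to 0.522 over its alternatives). Without wild type replicate 1, 4 genes of the list were called.

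**Figure D5:**
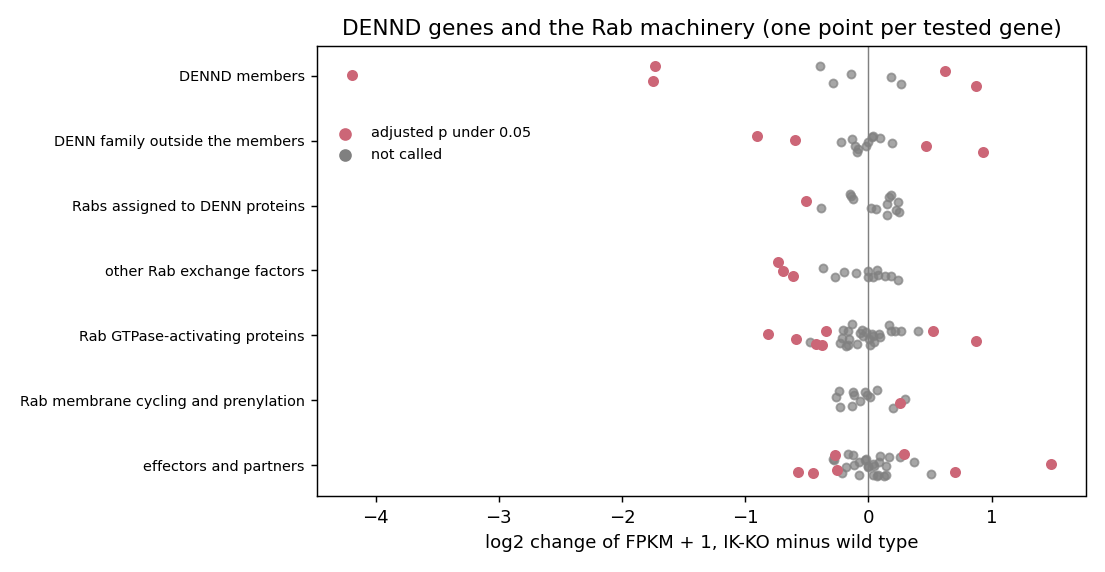
Log2 difference of FPKM + 1 (IK-KO minus wild type) of each tested gene in the DENND members and in the 6 lists around them, with called genes (limma adjusted p under 0.05) in red and the rest in grey; vertical scatter within a row has no meaning. The members spread from −4.19 to 0.87, and the genes of the other lists lie between −0.90 and 1.48.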

How the data were processed

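Gene-level tables of 3 wild type and 3 IK-KO libraries were used. The authors deposited FPKM values, each with 2 confidence bounds and a status. The submitters' processing notes name STAR 2.6.1c, Cufflinks 2.2.1, HOMER 4.10 and hg38, without roles. The strand setting and annotation are not given in the sources used here. All 49727 identifiers shared by version with GENCODE release 44 lay at the same GRCh38 position. Rows of 1 identifier were summed (110 identifiers), and 29 identifiers without an OK status were left out. No counts were given, so no count model was used. The depth of each library was estimated from the confidence bounds of genes with 1 transcript, taking a bound to lie 2 counting errors from its value.

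Groups came from the labels. The members and gene lists were chosen with earlier results of these data known. Genes with a mean of at least 1 FPKM were fitted on log2(FPKM + 1) with limma 3.58.1 (R 4.3.3; lmFit, eBayes with trend; two-sided; Benjamini-Hochberg over 12652 genes; called at an adjusted p under 0.05). Changes on this scale understate those of low genes. The RNA-seq analysis that the study describes used read counts on a mouse genome, which these human FPKM tables do not hold, so limma was taken here. The fit was tested on simulated data with 200 changed genes.

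Named were the 10 members, IKZF1, every gene of the DENN list, the Rab of each member, up to 4 called genes without overlap per other list by size of change, the expressed neighbours of DENND2D within 500 kb, and the 5 genes nearest to its profile. SLC24A1, RAB11A, RAB39B and M6PR were named after their values were seen. The 14 alternatives were 2 other filters, another pseudocount, 2 other scalings, leaving out each of 6 libraries, a replicate block, keeping failed estimates, and removing the median change within 5 Mb. RIN3, 1 of 21 listed exchange factors, had no row by that name.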

Additional observations from a re-analysis of the deposited data

How the results depend on the processing

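The 5 called and 5 uncalled members kept their side of the threshold in each of the 14 alternatives that tested them (DENND3 and DENND4A were not tested at a mean of at least 5 FPKM, where 4 members were called). The members were picked with this contrast in view and the alternatives use the same libraries, so this describes the processing only and is no support for the differences. The DENND2D log2 change moved by more than the spread between libraries under 2 settings, to −4.45 with a pseudocount of 0.1 and to −4.29 with FPKM rescaled to a sum of 1000000, and lay from −4.24 to −4.12 when each of the 6 libraries was left out in turn. The count of genes called among all tested genes lay from 1720 to 2042 in those fits and at 1805 with the replicate block, against 2515. No pairing by replicate number was seen, with correlations between deviations at the same number of 0.067, 0.025 and 0.0055. With the block, 5 members, 4 genes of the DENN family outside the members, 1 of the Rabs assigned to DENN proteins and 2 neighbours of DENND2D were called, and the 10 members kept their calls. Counts of called genes in the lists moved by over 1.5 times as follows. With a mean of at least 5 FPKM, 2 genes of the DENN family outside the members were called, since fewer were tested. With neighbours within 5 Mb removed, 0 of the Rabs assigned to DENN proteins and 0 genes of Rab membrane cycling and prenylation were called, and the YIPF3 difference was reversed to −0.0125. With no filter on low values that last list also had 0, and with median-of-ratios size factors 5 Rab exchange factors without a DENN domain were called (2 to 4 in the fits without 1 library). The list of membrane cycling had 0 to 1 and that of effectors and partners of the members and their Rabs 4 to 6 in the fits without 1 library. The cause was not tested where none is given. Of 48 other named genes, 41 kept their side in every alternative, and 660 values gave 17 lost calls, 1 gained call (SBF1, with neighbours removed) and 1 reversal. Wide confidence bounds limit DENND3, and low levels limit other genes near 1 FPKM.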
